A study of Mus musculus with 6 samples.

Results

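The genes described here encode the enzymes that turn peptide prohormones into active hormones, together with a convertase inhibitor and a convertase chaperone. They were chosen by name as 10 genes: the convertases Pcsk1, Pcsk2, Furin and Pcsk7, the inhibitor gene Pcsk1n, the chaperone gene Scg5, the carboxypeptidases Cpe and Cpd, the amidating enzyme gene Pam and the glutaminyl cyclase gene Qpct. A probe set with the gene as its single symbol was available for 9 of them, out of 22180 genes so represented, and each of the 9 had 1 probe set. Pcsk2 was not analysed here.

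RNA of pancreatic islets, the endocrine clusters that hold the β cells, was hybridised to Affymetrix arrays for 3 Sel1L-deficient and 3 wildtype samples, all from mice aged 5 weeks on the C57BL/6J background. Sel1L is a partner of the ubiquitin ligase HRD1, and the pair takes misfolded proteins out of the endoplasmic reticulum for degradation. The Sel1L-deficient mice carried floxed Sel1L alleles and a Cre gene in the Ins1 locus (Ins1Cre), so that recombination was driven in β cells alone. The wildtype samples were Sel1L f/f littermates, so every mouse carried the floxed alleles and the controls lacked Cre. The presence of Cre and its insertion in the Ins1 locus therefore go with Sel1L loss in these samples and cannot be told apart from it. Islets were isolated with Liberase, picked by hand and kept overnight in culture medium before RNA extraction. The labels do not say how many animals each sample pooled, and p-values therefore measure the spread between these samples.

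Peptide hormones are made as larger precursors that are cut at pairs of basic residues while they travel through the Golgi and the secretory granules. In β cells the convertases PC1/3 and PC2 open proinsulin on either side of C-peptide, and carboxypeptidase E then removes the basic residues left at the new ends. In α cells PC2 releases glucagon from proglucagon. Furin and PC7 cut other precursors earlier in the pathway, between the trans-Golgi network and the cell surface.

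Pcsk1 was the 1 of the 9 measured genes that passed the test, and it fell in Sel1L-deficient islets to 48.2% of the wildtype level. The other 8 genes, among them the bright carboxypeptidase gene Cpe, did not pass, with log2 differences of -0.27 to 0.12. Differences are Sel1L-deficient minus wildtype on the log2 scale of the deposited values. They were tested with limma across all 22180 genes, and the threshold was a Benjamini-Hochberg adjusted p under 0.05. Of all genes 0.243% passed it, 0.153% on the lower side and 0.0902% on the higher side, and of the 9 measured genes 1 was lower and 0 were higher. The median difference of the 9 was -0.02, beside 0.00044 over all genes, and 5 of the 9 differences were negative and 4 positive.

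The promoter of Pcsk1 is shown because Pcsk1 was the measured enzyme gene that fell, with that of the chaperone gene Scg5, which did not pass the test, set beside it. Each sequence holds the 250 bases before the annotated transcript start, from RefSeq on build GRCm38.p6, on the strand of the gene. Pcsk1 lies on the plus strand at chr13:75089607-75089856 and Scg5 on the minus strand at chr2:113829092-113829341. Capitals mark TGACG on either strand, the core of the element bound by cyclic AMP response element binding proteins.
Pcsk1: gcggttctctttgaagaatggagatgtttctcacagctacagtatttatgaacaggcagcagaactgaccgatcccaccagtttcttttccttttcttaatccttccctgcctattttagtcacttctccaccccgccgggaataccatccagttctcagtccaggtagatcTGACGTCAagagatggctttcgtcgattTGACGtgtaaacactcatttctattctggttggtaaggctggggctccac
Scg5: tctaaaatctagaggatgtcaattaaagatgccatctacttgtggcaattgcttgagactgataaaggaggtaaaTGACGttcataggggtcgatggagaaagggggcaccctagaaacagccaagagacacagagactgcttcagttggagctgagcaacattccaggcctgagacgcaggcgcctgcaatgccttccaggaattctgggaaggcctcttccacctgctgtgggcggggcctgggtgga
The Pcsk1 window held TGACG 3 times, and in 2 of these the matches on the 2 strands overlapped to form the full palindrome TGACGTCA, which began 78 bases before the start. The remaining match began 50 bases before it. The Scg5 window held TGACG 1 time, beginning 175 bases before the start. Among all 32851 promoter windows, 17.8% held TGACG on either strand and 1.55% held TGACGTCA. Windows were available for 7 of the 9 measured genes. Pcsk1, Scg5 and 1 of the 2 Furin windows held TGACG, and Pcsk1 was the gene whose window held TGACGTCA. A second motif, TGCTGA, the half-site of the element bound by MAF factors, was in 16.1% of all windows and in 0 of the 9 windows of these genes. A match describes these letters and is not a measured binding site.

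Before the values are given, 1 feature of the arrays needs stating. The labels give female for all 6 samples, yet replicate 3 of each genotype had Xist at 2.93 to 3.08 and the 3 measured Y-linked genes at 5.39 to 7.31, against 9.93 to 10.4 and 1.20 to 2.07 on the other 4 arrays. The 2 arrays that stand apart therefore fall 1 in each genotype, and differences within each class of arrays are given for Pcsk1 and for several other genes. Sel1l, the targeted gene, stood at 7.73, 7.65 and 7.68 on the Sel1L-deficient arrays, against 8.46, 8.56 and 8.76 on the wildtype arrays. The difference was -0.90 ± 0.11 (SE, n = 3 each; limma adjusted p = 0.0312). On every array it went with the genotype label, although the adjusted p was 0.0829 to 0.140 in the 6 fits that each left out 1 array and 0.0559 with replicate number as a block. The position of its probes against the deleted exons was not analysed here, and islet cells other than β cells keep the gene.

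Pcsk1 encodes PC1/3, a serine protease of the secretory granule that starts proinsulin cleavage. Its probe set, 17288677, read 8.72, 8.69 and 9.10 on the Sel1L-deficient arrays, against 9.80, 9.78 and 10.09 on the wildtype arrays. All 3 Sel1L-deficient values lay below all 3 wildtype values, and the gap between the groups was 0.68. Within each genotype replicate 3 was the highest. The group means were 8.84 ± 0.23 in Sel1L-deficient and 9.89 ± 0.17 in wildtype islets (SD, n = 3 each). The difference was -1.05 ± 0.15 (SE, n = 3 each), with a 95% interval of -1.39 to -0.71, and it passed the test (limma adjusted p = 0.0410). Pcsk1 was thus 2.07-fold lower, with an interval of 1.64-fold to 2.62-fold. It had the 29th lowest difference of all 22180 genes, and 13 of the 34 genes called lower fell further.

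The size of the Pcsk1 difference depended little on the arrays used, while the call did depend on them. On the 4 arrays with high Xist the difference was -1.09 (limma adjusted p = 0.118), and between the replicate 3 arrays it was -0.98, a single pair with no test. Adjusting for Xist class as a covariate brought the adjusted p to 0.0135, and blocking on replicate number to 0.0285. Leaving out Sel1L-deficient replicate 3 gave -1.19 (limma adjusted p = 0.0444). The other 5 such fits lost the call: the adjusted p was 0.203 and 0.200 when Sel1L-deficient replicates 1 and 2 were omitted in turn, and 0.154, 0.127 and 0.152 for wildtype replicates 1, 2 and 3, with differences of -0.95 to -1.11. With every one of the 41345 probe sets tested, named or not, the adjusted p was 0.212.

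**Figure D1:**
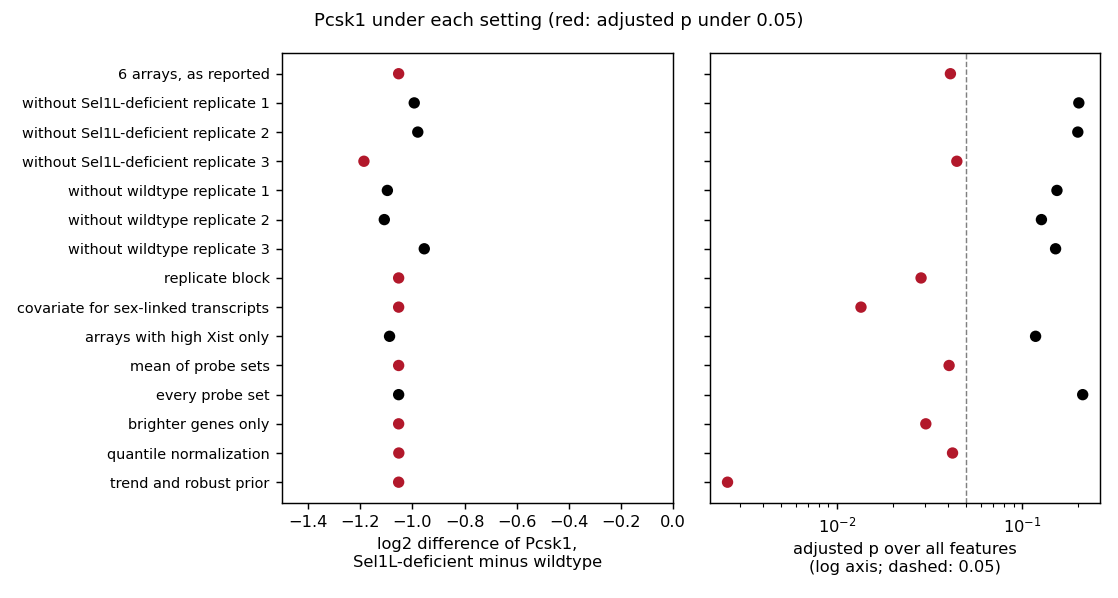
The log2 difference of Pcsk1, Sel1L-deficient minus wildtype (left, linear axis), and its limma adjusted p (right, log axis, dashed line at 0.05) under the setting reported and 14 others, with settings past the threshold in red. The difference stays between -1.19 and -0.95 while the adjusted p runs from 0.00257 to 0.212.

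Pcsk1n encodes proSAAS, a granin-like precursor whose peptides inhibit PC1/3. It read 7.58, 7.64 and 7.66 on the Sel1L-deficient arrays, against 7.45, 7.53 and 7.59 on the wildtype arrays. The groups overlapped by a narrow margin, with Sel1L-deficient replicate 1 just under wildtype replicate 3. The difference was 0.10 ± 0.10 (SE), with a 95% interval of -0.12 to 0.33 (limma adjusted p = 0.813). The interval of Pcsk1n includes 0, so the sign of its difference is not settled. The difference of Pcsk1 minus that of Pcsk1n was -1.16 ± 0.14 (SE, n = 3 each).

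Scg5 encodes the neuroendocrine chaperone that PC2 needs to become active. It read 8.83, 8.90 and 8.94 on the Sel1L-deficient arrays, against 9.19, 8.84 and 9.06 on the wildtype arrays. Wildtype replicate 2 lay within the Sel1L-deficient range, and the wildtype arrays were the more spread, at ± 0.18 against ± 0.06 for the Sel1L-deficient arrays (SD; n = 3 each). The difference was -0.14 ± 0.12 (SE), with a 95% interval of -0.41 to 0.13 (limma adjusted p = 0.787).

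Cpe encodes carboxypeptidase E, the exopeptidase of the granule that trims the basic residues left by the convertases. It read 11.47, 11.47 and 11.52 on the Sel1L-deficient arrays, against 11.43, 11.47 and 11.56 on the wildtype arrays. The Sel1L-deficient values all lay inside the wildtype range. The difference was 0.00088 ± 0.098 (SE; limma adjusted p = 1.00), and the 95% interval of the ratio ran from 85.7% to 117% of the wildtype level. The probe set is bright, and how far the array scale compresses differences at that height was not measured here.

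Cpd encodes carboxypeptidase D, a related exopeptidase of the trans-Golgi network. It read 9.03, 8.95 and 8.82 on the Sel1L-deficient arrays, against 9.05, 8.97 and 8.85 on the wildtype arrays. The groups overlapped, and replicate 3 was the lowest array of both genotypes, the opposite of the order seen for Pcsk1 and Cpe. The difference was -0.02 ± 0.11 (SE), with a 95% interval of 82.7% to 117% of the wildtype level (limma adjusted p = 0.974).

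**Figure D2:**
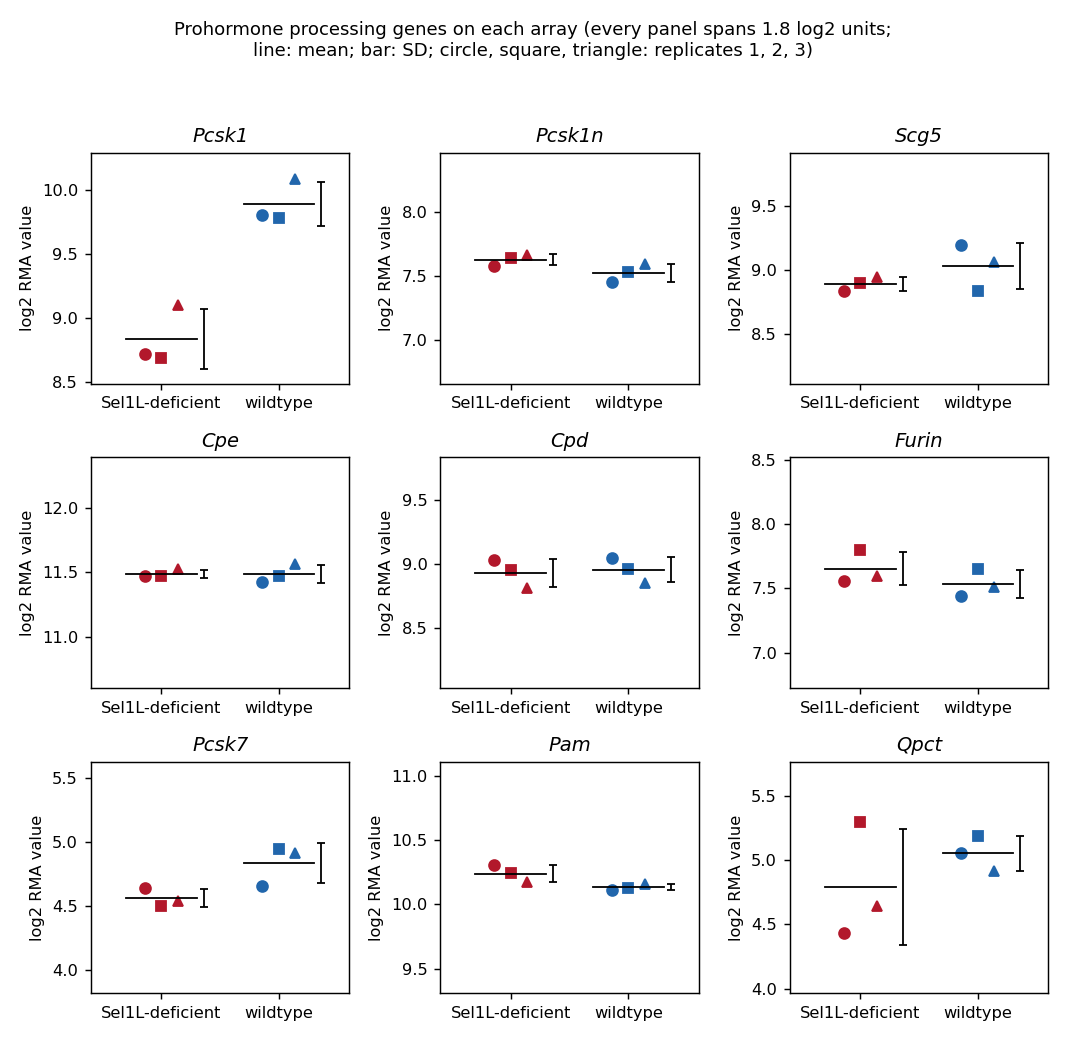
Log2 RMA values of the 9 measured genes on each array, Sel1L-deficient (red) left of wildtype (blue), with a circle, a square and a triangle for replicates 1, 2 and 3, a line at the mean and a bar for the SD. Every panel spans the same log2 range, and Pcsk1 is the gene whose groups are parted by a gap of 0.68, while Pcsk7 and Pam are parted by 0.01 and 0.02.

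Furin, the convertase of the trans-Golgi network found in most cell types, read 7.56, 7.80 and 7.60 on the Sel1L-deficient arrays, against 7.44, 7.65 and 7.51 on the wildtype arrays. Replicate 2 was the highest array of both genotypes, and the groups overlapped. The difference was 0.12 ± 0.11 (SE), with a 95% interval of -0.14 to 0.38 (limma adjusted p = 0.815).

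Pcsk7 encodes PC7, another widely expressed convertase of the late secretory pathway. It read 4.64, 4.50 and 4.54 on the Sel1L-deficient arrays, against 4.66, 4.94 and 4.91 on the wildtype arrays. The 3 Sel1L-deficient values lay below the 3 wildtype values by a gap of 0.01, so wildtype replicate 1 was close to the other group. The difference was -0.27 ± 0.12 (SE), with a 95% interval of -0.54 to -0.01, and it did not pass over all genes (limma adjusted p = 0.506; unadjusted p = 0.0443). It was -0.23 on the arrays with high Xist and -0.37 between the replicate 3 arrays. Of all genes 9.48% had an unadjusted p under 0.05.

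Pam encodes the enzyme that turns a C-terminal glycine into an amide, as on amylin. It read 10.31, 10.24 and 10.18 on the Sel1L-deficient arrays, against 10.12, 10.13 and 10.16 on the wildtype arrays. All 3 Sel1L-deficient values were above all 3 wildtype values, by a gap of 0.02. The difference was 0.11 ± 0.10 (SE), with a 95% interval of -0.12 to 0.33 (limma adjusted p = 0.806). It was 0.15 on the arrays with high Xist and 0.02 between the replicate 3 arrays.

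Qpct encodes glutaminyl cyclase, which closes an N-terminal glutamine into pyroglutamate. It read 4.43, 5.30 and 4.64 on the Sel1L-deficient arrays, against 5.06, 5.19 and 4.92 on the wildtype arrays. Sel1L-deficient replicate 2 was the highest of all 6 arrays while the other Sel1L-deficient arrays were the lowest. With an SD of 0.45 that group had the widest spread of any of the 9 genes, whose other group SDs went down to 0.02. The difference was -0.26 ± 0.21 (SE), with a 95% interval of 59.8% to 116% of the wildtype level (limma adjusted p = 0.766). It was -0.52 without Sel1L-deficient replicate 2 and -0.08 without Sel1L-deficient replicate 1, so its size rested on single arrays.

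**Figure D3:**
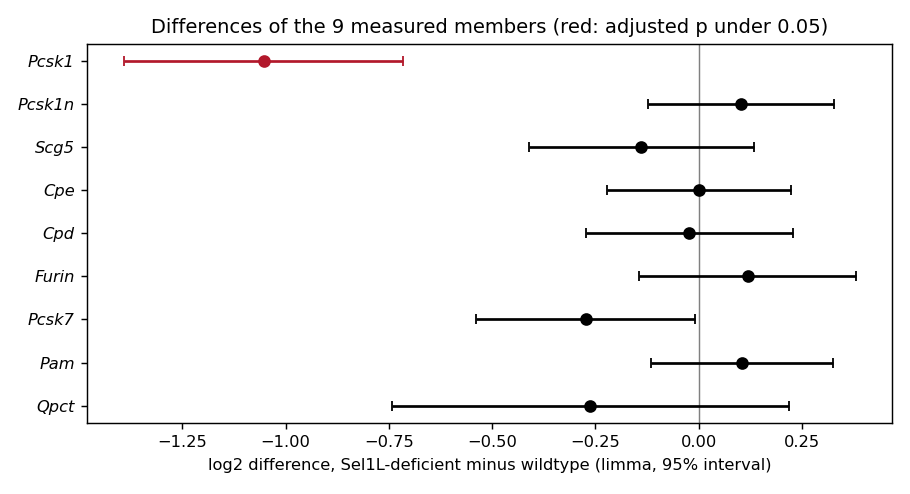
Log2 differences, Sel1L-deficient minus wildtype, of the 9 measured genes with the 95% interval of the limma fit (horizontal bars), Pcsk1 in red as the gene past an adjusted p of 0.05. The Pcsk1 interval of -1.39 to -0.71 is clear of 0, as is, narrowly, the Pcsk7 interval of -0.54 to -0.01. The differences of the genes other than Pcsk1 lie between -0.27 and 0.12.

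Of the 9 genes, 2 had all Sel1L-deficient arrays below all wildtype arrays, Pcsk1 and Pcsk7, and 1, Pam, had them all above. Over all genes the groups were parted in this way in 7.84% on the lower side and in 7.22% on the higher side. The sign of the difference was the same on the arrays with high Xist and between the replicate 3 arrays for 8 of the 9. The exception was Cpe, with 0.02 and -0.04.

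How far Pcsk1 moved apart from the other 8 genes was taken array by array, as the log2 value of Pcsk1 minus that of the other gene. This compares changes and not levels. Pcsk1 was singled out by its fall on these same arrays, so the values below describe that fall again and are no separate support. The Pcsk1 difference was below that of the other gene by 0.78 for Pcsk7 and 0.79 for Qpct at the least and by 1.17 for Furin at the most. In all 8 pairs the 3 Sel1L-deficient arrays lay below the 3 wildtype arrays. Each exact permutation test gave p = 0.1 (two-sided), and the Benjamini-Hochberg adjusted value over the 8 pairs was also 0.1. That is the smallest p that 3 arrays against 3 can give, so no pair could pass 0.05. The 95% interval of the pair with Qpct, -1.83 to 0.25, included 0, and that of the pair with Cpe was -1.42 to -0.69.

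The Pcsk1 change was then set beside those of other β-cell transcripts. In whole islets, fewer cells of a type and less RNA per cell cannot be told apart. All 9 measured genes of a β-cell marker list, written with earlier results of these data known, were lower on every Sel1L-deficient array than on any wildtype array, as were 7.84% of all genes. Of the 9, 4 were called lower, against 0.153% of all genes, namely Mafa, Ucn3, the glucose transporter gene Slc2a2 and G6pc2. The call of Slc2a2 (limma adjusted p = 0.0265) was lost in 5 of the 6 fits that left out 1 array, at 0.0815 to 0.135, and held without Sel1L-deficient replicate 3, at 0.0444. The 9 differences ran from -2.11 for the transcription factor gene Mafa to -0.07 for the zinc transporter gene Slc30a8, and Pcsk1 lay among them, with 3 of the 9 lower than it. The mean of the 9 differed by -0.92 ± 0.10 (SE, n = 3 each). Relative to that mean Pcsk1 differed by -0.13, with a 95% interval of -0.41 to 0.15 (exact permutation p = 0.2, two-sided, where 3 arrays against 3 cannot go below 0.1). The test could therefore not have passed, and the mean averages members of very unequal differences, the amylin gene Iapp at -0.09 among them.

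**Figure D4:**
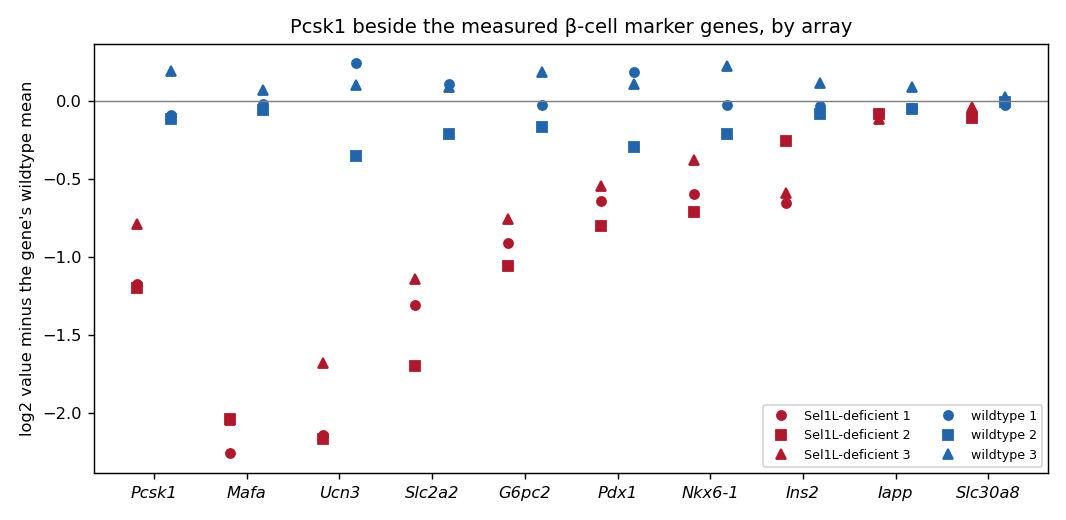
Log2 value minus the gene's own wildtype mean on each array for Pcsk1 and the 9 measured β-cell marker genes, Sel1L-deficient (red) left of wildtype (blue) for each gene, with symbols for replicates 1, 2 and 3. Pcsk1, with a mean of -1.05, sits between Slc2a2 at -1.38 and G6pc2 at -0.91.

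The genes whose values ran most like those of Pcsk1 over the 6 arrays were found by the root mean square distance between values centred on each gene's own mean. The 4 nearest named genes were Phactr1, a phosphatase and actin regulator, at a distance of 0.05, the heparanase gene Hpse at 0.06, the islet glucose-6-phosphatase gene G6pc2 at 0.10 and the cystathionine β-synthase gene Cbs at 0.11 log2 units. Their differences were -1.02, -1.11, -0.91 and -1.14 (limma adjusted p = 0.0435, 0.0435, 0.0449 and 0.0320). Since likeness to Pcsk1 selects such a difference, these values are a description. Like that of Pcsk1, the calls of Phactr1, Hpse and Cbs were lost in 5 of the 6 fits that left out 1 array (adjusted p = 0.108 to 0.209) and held without Sel1L-deficient replicate 3, at 0.0491, 0.0459 and 0.0347. That of G6pc2 was lost in all 6 (adjusted p = 0.0810 to 0.208). Hpse has another probe set, and on the mean of both its difference was -0.54 (adjusted p = 0.212).

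The other convertase genes were measured for 4 of 5 named, and 0 fell or rose (median difference 0.09, against 0.00044 over all genes). Pcsk6, whose product PACE4 cuts growth factor precursors outside the granule, read 6.95, 7.05 and 6.63 on the Sel1L-deficient arrays, against 6.25, 6.15 and 6.03 on the wildtype arrays. The groups of Pcsk6 did not overlap, as in 7.22% of all genes on the higher side. Pcsk6 differed by 0.73 ± 0.14 (SE; limma adjusted p = 0.125). Its adjusted p was 0.0313 with an intensity trend and a robust prior in the fit. Pcsk4, known from germ cells, differed by 0.13 (limma adjusted p = 0.877), with 0.24 on the arrays with high Xist and -0.11 between the replicate 3 arrays. Among carboxypeptidases of the same large family 17 of 19 were measured and 0 passed in either direction (median 0.08), and 9 of the 17 had a mean below the median of all values. Cpm, a membrane-bound carboxypeptidase, differed by 0.52 and Agbl3, a cytosolic one, by 0.32 (limma adjusted p = 0.493 and 0.50). On the arrays with high Xist Cpm differed by 0.74 and Agbl3 by 0.47, and between the replicate 3 arrays by 0.09 and 0.02.

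Of the 12 other genes of peptide processing, a list of proteases, the second glutaminyl cyclase and genes for copper and electron supply to the amidating enzyme, 0 passed in either direction (median -0.03). Ide, the insulin-degrading enzyme, read 8.85, 8.56 and 8.47 on the Sel1L-deficient arrays, against 8.14, 7.77 and 7.83 on the wildtype arrays. Its groups did not overlap, and the difference was 0.72 ± 0.15 (SE; limma adjusted p = 0.167, and 0.0317 with an intensity trend and a robust prior). Ece2, an endothelin-converting enzyme that cleaves peptides at low pH, differed by 0.60 (limma adjusted p = 0.213), with 0.74 on the arrays with high Xist and 0.33 between the replicate 3 arrays. Atp7a, the copper transporter that supplies copper enzymes of the secretory pathway, such as the product of Pam, differed by -0.65 (limma adjusted p = 0.398), with -0.53 on the arrays with high Xist and -0.91 between the replicate 3 arrays. Ece2 and Atp7a also had groups that did not overlap, which with a difference of at least 0.5 was a ground for naming genes. Of the 12 genes, 3 had groups parted on the higher side and 3 on the lower side. Over all genes these shares were 7.22% and 7.84%.

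The precursors that these enzymes cut were measured for 17 of 18 genes, of which 1 fell, 0 rose and 16 did not pass (median 0.03). Ucn3, the urocortin precursor gene of mature β cells, read 7.07, 7.05 and 7.54 on the Sel1L-deficient arrays, against 9.46, 8.87 and 9.32 on the wildtype arrays. It fell 3.99-fold (limma adjusted p = 0.0130). The call was lost without Sel1L-deficient replicate 1 (0.0896), Sel1L-deficient replicate 2 (0.0686), wildtype replicate 1 (0.0590) or wildtype replicate 3 (0.0731). Other precursors were named after their values had been seen. Ins2, an insulin gene and a substrate of PC1/3, read 10.45, 10.85 and 10.51 on the Sel1L-deficient arrays, against 11.07, 11.02 and 11.21 on the wildtype arrays. Its difference was -0.50 ± 0.13 (SE; limma adjusted p = 0.279), with a 95% interval of -0.80 to -0.19, which excludes 0. It was -0.39 on the arrays with high Xist and -0.70 between the replicate 3 arrays. The glucagon gene Gcg differed by 0.03 and the somatostatin gene Sst by -0.03, with 95% intervals of -0.19 to 0.26 and -0.25 to 0.20. Their means were 12.6 and 12.5 in both genotypes, beside a highest value of 13.0 on any array. How far the array scale compresses differences at that height was not measured here.

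Granule enzymes work at the low pH that the vacuolar proton pump sets. Of its 18 named subunit and accessory genes 16 were measured, and 0 passed the test in either direction. Of the 16 differences 14 were negative, with a median of -0.24 beside 0.00044 over all genes, and in 10 genes all Sel1L-deficient arrays lay below all wildtype arrays, as in 7.84% of all genes. Atp6ap2, an accessory protein of the pump, read 7.99, 8.10 and 8.53 on the Sel1L-deficient arrays, against 8.94, 8.81 and 9.23 on the wildtype arrays. Its difference was -0.79 ± 0.17 (SE; limma adjusted p = 0.185). Adjusting for Xist class brought the adjusted p to 0.0452, and an intensity trend with a robust prior to 0.0444. Atp6v1a, the catalytic subunit, differed by -0.37 (limma adjusted p = 0.329). The summed level of the 16 genes was 12.0 to 12.1 on the Sel1L-deficient arrays and 12.2 to 12.4 on the wildtype arrays, as log2 of the summed linear values.

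Transcription factors of β and α cells were measured for 15 of 17 genes, of which 1 fell and 0 rose (median 0.01). Mafa, a factor of mature β cells, read 6.42, 6.64 and 6.64 on the Sel1L-deficient arrays, against 8.66, 8.62 and 8.75 on the wildtype arrays. It fell 4.33-fold (limma adjusted p = 0.000681) and kept its call in each of the 6 fits that left out 1 array (adjusted p = 0.00455 to 0.0118), while on the 4 arrays with high Xist its adjusted p was 0.0527. Pdx1 and Nkx6-1, factors of β cells, differed by -0.66 and -0.56, and Irx1, a factor of α cells, by 0.56 (limma adjusted p = 0.196, 0.263 and 0.265). These 3 genes were named because their groups did not overlap and their differences were at least 0.5 in size. Of the 15 genes, 2 had groups parted on the higher side and 4 on the lower side. Over all genes these shares were 7.22% and 7.84%.

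**Figure D5:**
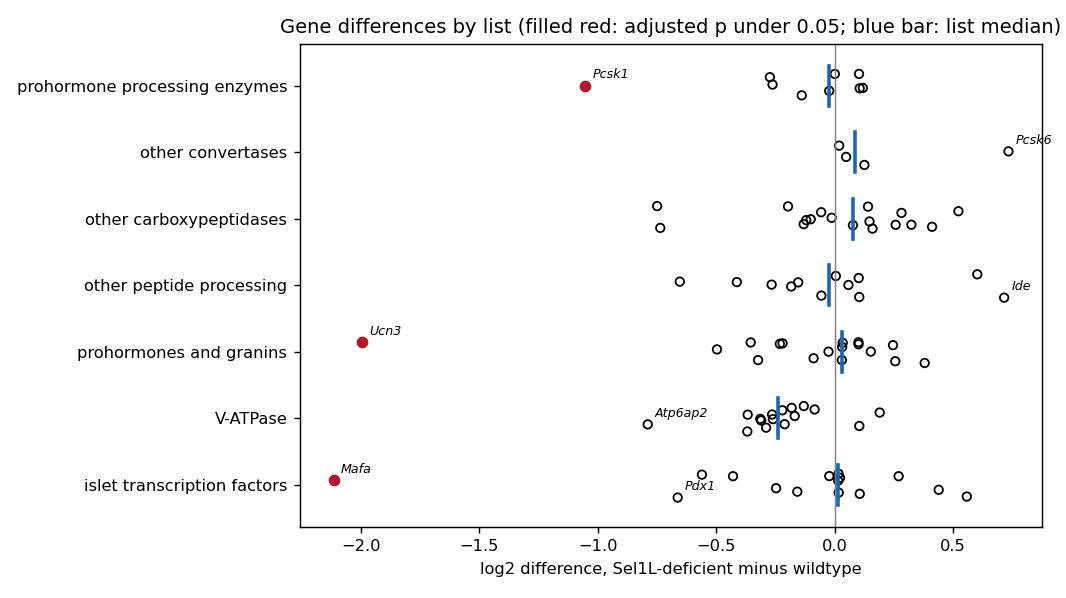
Log2 differences, Sel1L-deficient minus wildtype (horizontal axis), of each measured gene of 7 lists (rows), with genes past an adjusted p of 0.05 filled red and the list median as a blue bar. Pcsk1, Ucn3 and Mafa are the filled points, and the V-ATPase median lies at -0.24.

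The labelled tissue was checked against markers of the cells that islets and their surroundings hold. The summed β-cell list stood at 13.1 to 13.2 on the Sel1L-deficient arrays and 13.5 to 13.7 on the wildtype arrays, and the α-cell list, with 5 of 8 genes measured, at 13.4 on the Sel1L-deficient arrays and 13.3 on the wildtype arrays. Endothelial markers were higher in 9 of 9 genes, 6 of them with groups that did not overlap, as in 7.22% of all genes on the higher side, with summed levels of 10.7 to 10.9 on the Sel1L-deficient arrays and 10.1 to 10.5 on the wildtype arrays. Mesenchymal markers were higher in 8 of 8, at 9.16 to 9.27 on the Sel1L-deficient arrays and 8.51 to 8.93 on the wildtype arrays. Acinar markers were lower in 7 of 7, with wide overlap, at 11.0 to 13.0 on the Sel1L-deficient arrays and 11.8 to 13.1 on the wildtype arrays, and were highest on replicate 3 of both genotypes. No gene of these lists other than β-cell genes passed the test. The part of these markers in the Pcsk1 result was not tested.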

How the data were processed

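Islet RNA was measured on 6 arrays, 3 Sel1L-deficient and 3 wildtype. The authors deposited log2-scale RMA summaries per probe set, per the submitters' processing notes, which name RMA without a version. The log base was taken from the values, which lay between 0.526 and 13.0 with array medians of 3.08 to 3.16. RMA can compress large ratios. No build, filter or detection call is given in the sources used here, and dim values may be background. The number of arrays limits the precision.

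Of 41345 probe sets, 23521 had 1 gene symbol in the platform annotation, 1814 several and 16010 none. Each gene took its probe set with the highest mean, giving 22180 genes. Of these, 21994 matched RefSeq by Entrez identifier, with 0 symbols changed. Differences were tested with limma 3.58.1 in R 4.3.3 (lmFit, eBayes, two-sided, Benjamini-Hochberg) and checked on simulated data. Exact permutation tests used SciPy 1.17.1. Folds are 2 raised to the log2 difference.

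The 10 genes and all lists were chosen with earlier results of these data known. Named genes were the 10, the genes of 6 further lists past the threshold (else the 2 with the smallest p), those with groups that did not overlap and a difference of at least 0.5, the 4 nearest to Pcsk1, Sel1l and the sex-linked genes. A further 6 were named after their values were seen: Ins2, Iapp, Gcg, Sst, Slc30a8 and Slc2a2. Alternatives left out each array, blocked on replicate number, adjusted for or removed the arrays with low Xist, averaged or separated probe sets, dropped dim genes, quantile-normalized again or changed the variance prior. The deposited table allowed no change of background correction.

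Same-numbered samples of the 2 genotypes had deviations from their group means that correlated across genes at 0.105, 0.072 and 0.21. Samples of different number correlated at 0.041 or below. The controls were littermates, but the labels do not say which samples shared a litter or a day. Each sample thus correlated best with the sample of its own number, but the labels do not state a pairing. The reported fit therefore left the numbers out, and a block on replicate number was run as an alternative.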

Additional observations from a re-analysis of the deposited data

How the results depend on the processing

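Beside the reported fit, 14 settings were run. The Pcsk1 difference was negative in all of them, from -1.19 to -0.95, and passed in 7 and not in 7 (adjusted p = 0.00257 to 0.212). It was -1.09 on the arrays with high Xist only and -1.05 when every probe set was tested, and passed in neither. In the fits that left out 1 array it ran from -1.19 to -0.95. None of the other 8 genes passed in any of the 112 values so obtained (lowest adjusted p = 0.342). The sign changed for 2 of them, both near 0, in fits without 1 array: Cpe ran from -0.029 to 0.040 and Cpd from -0.074 to 0.035. Of the genes outside the 9, Pcsk4 ran from -0.045, without Sel1L-deficient replicate 2, to 0.27 and Sst from -0.049 to 0.011, without wildtype replicate 1. The cause was not tested. The number of the 9 genes called lower was 0 on the arrays with high Xist and with every probe set, and 0 to 1 without 1 array, while 0 were called higher throughout. Their median difference lay between -0.074, without wildtype replicate 3, and -0.018 over such fits.

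Over all genes 20 were called higher and 34 lower. Leaving out 1 array gave 1 to 13 higher and 3 to 16 lower. The arrays with high Xist alone gave 1 and 0, testing every probe set gave 0 and 3, and an intensity trend with a robust prior gave 44 and 89. With replicate number as a block 14 were higher and 22 lower. Of the other named genes called in the reported fit, Ucn3, Slc2a2, G6pc2, Cbs, Hpse, Phactr1 and Sel1l also lost their calls on the arrays with high Xist and with every probe set tested (adjusted p = 0.112 to 0.225). The replicate block kept the Pcsk1 call (limma adjusted p = 0.0285) and ended that of Sel1l (0.0559), with no other call of a named gene changed by it. Each sample's deviations correlated best with those of the sample of its own number, a hint from the data and not the design. Pcsk1 minus each other gene's difference was recomputed without each array in turn and on the arrays with high Xist. There it was negative throughout, from -1.33 to -0.46, a description of a gene singled out on these same arrays.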
